A study of Homo sapiens with 4 samples.

Results

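The NF-kB pathway was followed through 42 genes: the REL family subunits, the IkB proteins, the kinases, receptors and adaptors upstream of them, the brakes on the signal and a set of target genes. They were found by symbol, once Entrez IDs had been matched to symbols, and all 42 were among the 39259 genes measured. The cells were MDA-MB-231, a long-established human line from a triple-negative breast cancer, cultured in medium with serum, and no agent is named as a treatment. The libraries are 2 from wild-type (WT) cells and 2 labelled as a KO of mdig, the protein, also called MINA53, that the gene RIOX2 encodes and that belongs to the JmjC oxygenases. The labels give neither how the gene was disrupted nor whether the line is a clone. They do not say that replicates came from separate cultures, so the p-values reflect only how far these libraries varied, and that variation may be technical.

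NF-kB transcription factors are dimers of REL family proteins that IkB proteins hold in the cytoplasm. Signals from TNF, interleukin-1 and Toll-like receptors pass through adaptors and ubiquitin ligases to the IkB kinase complex, which marks IkB for destruction, while a noncanonical route runs through the kinase NIK and the processing of the NFKB2 product. Many inhibitors of the pathway are themselves its targets, and basal-like breast cancer lines are known for constitutive NF-kB activity. RNA levels do not measure that activity, which depends on protein processing and entry into the nucleus.

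Values are FPKM, the fragments on a gene scaled by its length and by the fragments assigned in its library, of which there were 22503981 (WT replicate 2) to 52163811. RIOX2 measured 8.60 and 8.24 FPKM in WT and 9.23 and 9.82 FPKM in the libraries labelled KO (0.16 on the log2 scale, limma adjusted p = 0.0546), and passed as higher in 7 of 14 alternatives. Its RNA was not lower there, so RNA does not check the label, and each direction here is that of the libraries labelled KO (KO-labelled below) relative to WT. The mesenchymal marker VIM and the receptor CD44 were abundant in all 4 libraries, and the 5 markers listed for this line were all well above 1 FPKM. Of 7 luminal markers, ESR1, PGR and FOXA1 were at or near 0, while ERBB2, GATA3 and EPCAM were above 1 FPKM, GATA3 lower and EPCAM higher in the libraries labelled KO. CDH1 was at 0.177 and 0.128 FPKM in WT and 0.597 and 0.625 FPKM in those libraries. Of 9 leukocyte markers 1 was tested, CD68, which fell, while CSF1R was at 0.542 and 0.565 FPKM in WT and 1.14 and 1.11 FPKM in KO-labelled libraries. CD14, not tested either, was lower, at 1.18 and 1.27 FPKM in WT and 0.811 and 0.595 FPKM in KO-labelled libraries. ITGAM was also lower, at 0.165 and 0.240 FPKM in WT and 0.0681 and 0.0358 FPKM in KO-labelled libraries. The remaining leukocyte markers overlapped. Of 5 fibroblast and 4 endothelial markers, COL1A1, PDGFRB and PECAM1 were tested and were higher, each at 3.01 FPKM or less. PECAM1 averaged 0.977 FPKM in WT and reached the mean needed for testing through the KO-labelled libraries. Of those not tested, COL1A2 was higher and VWF and CDH5 lower without overlap, each at 0.0454 FPKM or less. DCN, LUM and KDR overlapped. The summed level of the 9 leukocyte markers was 79.9 and 78.1 FPKM in WT and 48.3 and 46.4 FPKM in KO-labelled libraries, nearly all from CD68, a lysosomal gene that other cells use too. The part of these markers in the results below was not tested. In bulk RNA, fewer cells of a kind and less RNA per cell cannot be told apart.

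Promoter letters come first, because several of these genes are textbook NF-kB targets. RefSeq promoter windows on GRCh38.p14, from 250 bases before to 50 bases after a transcript start, were held for 36 of the 42 genes (56 windows). Both strands were searched for the kB consensus of 10 letters, for a stricter form (GGG, any 2 bases, then TTTCC) and for the shorter GGANNTTCC, and matches to these can overlap. The consensus stood in 33.9% of the 56 windows and in 11.3% of all 35116. The stricter form stood in 25% against 1.91%, and GGANNTTCC in 23.2% against 4.56%. In the 13345 windows of genes with enough RNA to be tested below, the 3 shares were 13.4%, 2.18% and 4.64%. By gene, 18 of 36 had at least 1 match, or 50%, against 16.8% of all 27305 genes with a window. The 36 genes had more windows per gene (56 in all, against 35116 for the 27305), which favours a match by gene. A match describes letters and shows no binding. Shown here is 1 stretch with a match, in capitals, for each of 8 genes, chosen as examples from brakes, subunits, inhibitors, ligases and targets, read 5′ to 3′ on the strand of the gene. The first capitals of TNFAIP3 are the end of a neighbouring match. NFKB2, NFKBIA and BIRC3 have further matches that are not shown, as do genes such as IRAK1, NFKBIB, REL and TRAF3.
ICAM1, chr19:10270904-10270972, plus strand: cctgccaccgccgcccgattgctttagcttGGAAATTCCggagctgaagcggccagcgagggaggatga
CXCL3, chr4:74038728-74038798, minus strand: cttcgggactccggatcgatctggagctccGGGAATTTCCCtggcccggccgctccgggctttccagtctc
TNFAIP3, chr6:137867195-137867222, plus strand: AAGTCCCgtGGAAATCCCCgggcctaca
TNIP1, chr5:151081058-151081085, minus strand: cagtctccgGGGACTTTCCcaggggtgg
NFKB1, chr4:102501301-102501328, plus strand: gacgtcagtGGGAATTTCCagccaggaa
NFKB2, chr10:102395675-102395702, plus strand: ggtattttcGGGACTTTCCtaagctgct
NFKBIA, chr14:35404812-35404839, minus strand: gactggcttGGAAATTCCCcgagcctga
BIRC3, chr11:102317340-102317367, plus strand: attaccgctGGAGTTCCCCtaagtccta
The ICAM1 match began 186 bases before the start and those of CXCL3 79 and 78 bases before it. The TNFAIP3 matches began 67 and 55 bases before the start. Over all 11716 tested genes, 21.6% were higher and 28.4% lower in KO-labelled libraries (49.9% called by limma), and the counts that follow are read against that. Of the 18 genes with a match, 3 were higher and 7 lower in KO-labelled libraries, 6 did not pass the threshold and 2 were not tested. Of the 18 with none, 3 were higher, 4 lower, 8 did not pass and 3 were not tested.

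Across the 42 genes the changes were modest and mixed, with more falls than rises. Tested were the 35 whose mean over the 4 libraries reached 1 FPKM, and 6 were higher and 14 lower in KO-labelled libraries (limma on log2(FPKM + 1), with p-values adjusted by Benjamini-Hochberg over all genes tested and a threshold of 0.05). That is 57.1% called, where 49.9% of all 11716 tested genes were called. By direction, 17.1% were higher against a background of 21.6%, and 40% lower against 28.4%. The members were chosen with earlier results of these data known, so these shares are not an independent comparison. Higher calls were 43.2% of all calls, but 55.3% with median-of-ratios scaling. The members' median log2 change was −0.0026, beside −0.041 for all genes. Both KO-labelled libraries lay above both WT libraries for 14 genes and below them for 16, where 32.9% and 44.6% of all genes did so. IL1R1 and CXCL3 averaged under 1 FPKM in WT and passed the filter through the KO-labelled libraries. With median-of-ratios scaling 7 members were higher and 13 lower. Values in parentheses below are changes in log2(FPKM + 1), a scale that understates the change of low genes, with their standard error (SE) and limma adjusted p. Since change was this widespread, the genes are described one by one within their roles.

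**Figure D1:**
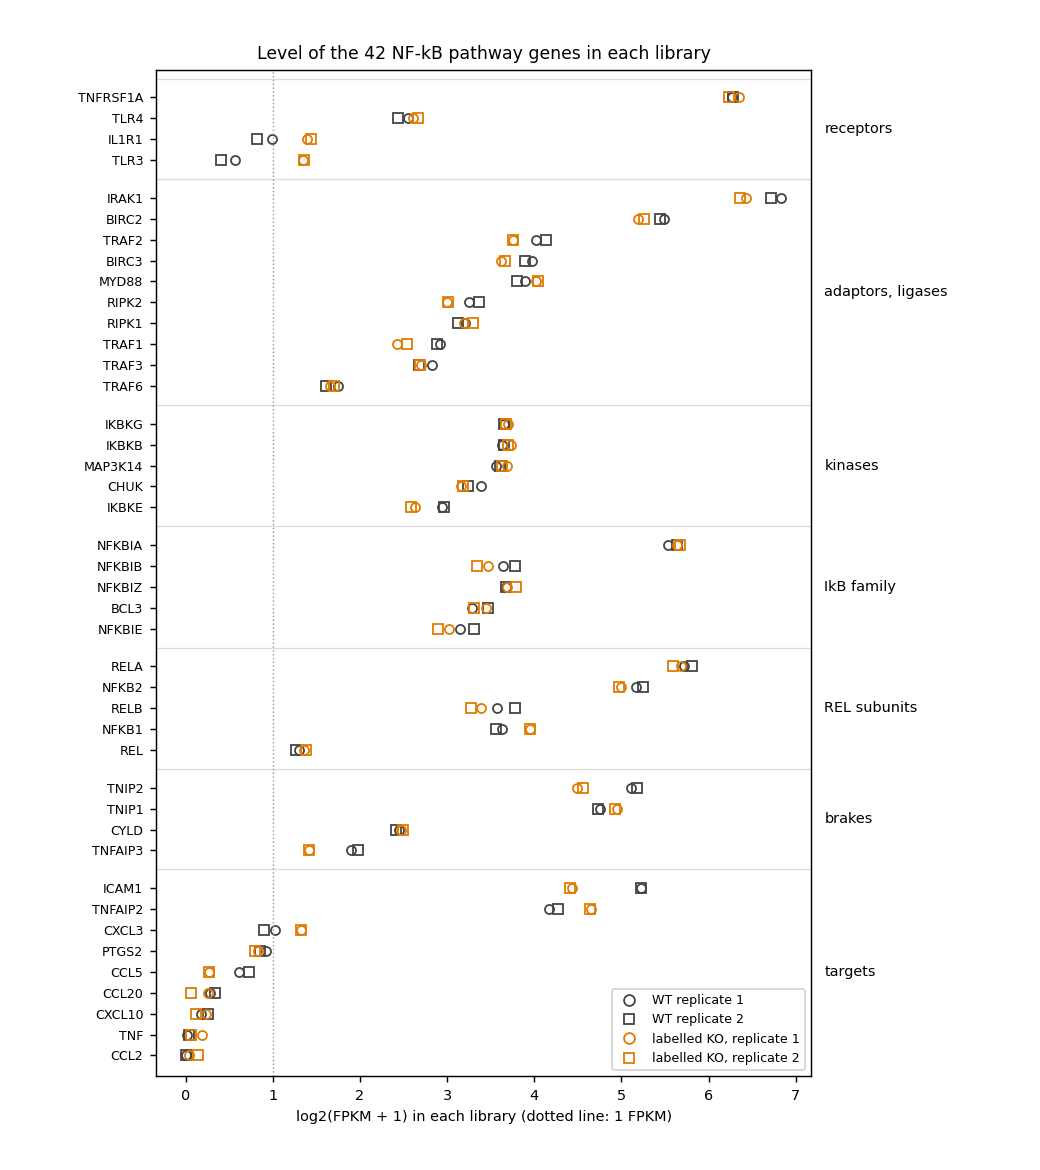
Level of the 42 NF-kB genes in each of the 4 libraries as log2(FPKM + 1), grouped by role. Circles are replicate 1 and squares replicate 2, dark for WT and orange for KO-labelled libraries. RELA, NFKBIA, TNFRSF1A and IRAK1 are among the most abundant, and 6 of the 9 targets lie left of the dotted line at 1 FPKM in all 4.

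**Figure D2:**
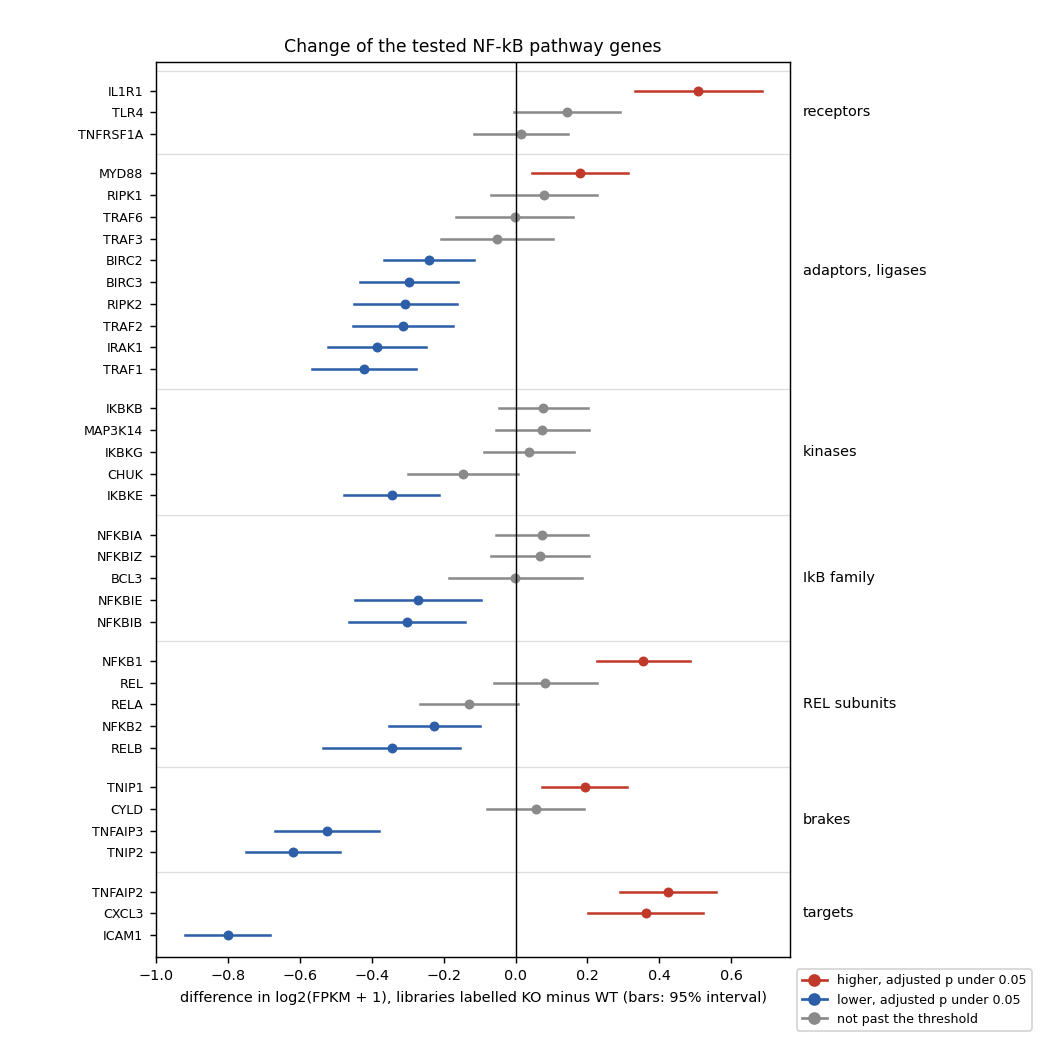
Difference in log2(FPKM + 1), KO-labelled minus WT libraries, for the 35 tested genes by role, as points with 95% intervals from limma. Among adaptors and ligases 6 of 10 fell, and ICAM1 lies farthest to the left at −0.80.

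Receptors differed from one another. IL1R1, the signalling receptor for interleukin-1, measured 0.986 and 0.767 FPKM in WT and 1.63 and 1.70 FPKM in KO-labelled libraries. Without overlap, IL1R1 rose 1.90-fold on FPKM (0.51, SE 0.076, adjusted p = 0.00105). With a WT mean of 0.876 FPKM, it was tested only because of the level in the KO-labelled libraries. TLR3, the endosomal sensor of double-stranded RNA, measured 0.478 and 0.325 FPKM in WT against 1.54 and 1.55 FPKM, both KO-labelled libraries being higher, and its mean missed the filter. With 174 fragments in WT and 940 in KO-labelled libraries, its depth-scaled ratio was 3.62 (95% exact interval 3.08 to 4.28, counting error only). Fitted with no filter, TLR3 had a log2 change of 0.86 (limma adjusted p = 0.00943). TLR4, the receptor for bacterial lipopolysaccharide, went from 4.84 and 4.43 FPKM to 5.09 and 5.35 FPKM, higher without overlap but not past the threshold (0.14, 95% interval −0.0053 to 0.29, adjusted p = 0.0978). TLR4 did pass as higher in 4 alternatives, such as median-of-ratios scaling (0.20, adjusted p = 0.0387). TNFRSF1A, the main TNF receptor and by far the most abundant of the 4, was at 75.9 and 76.9 FPKM in WT and 80.3 and 74.3 FPKM in KO-labelled libraries, which overlapped (0.016, 95% interval −0.11 to 0.15, adjusted p = 0.829).

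Adaptors and ubiquitin ligases carry the signal inward, and of 10 such genes 6 fell, 1 rose and 3 did not pass, with a median of −0.27, where 28.4% of all tested genes fell and 49.9% were called. TRAF1, an adaptor of TNF receptor family members, went from 6.56 and 6.40 FPKM to 4.38 and 4.80 FPKM (−0.42, SE 0.063, adjusted p = 0.00104). IRAK1, the kinase recruited to interleukin-1 and Toll-like receptors, went from 113 and 105 FPKM to 85.1 and 81.2 FPKM (−0.38, SE 0.059, adjusted p = 0.00119). Both fell without overlap, and IRAK1 was the most abundant of the 42 genes in every library. TRAF2, which docks the cIAP ligases at TNF receptors, fell from 15.2 and 16.5 FPKM to 12.5 and 12.5 FPKM (−0.31, SE 0.060, adjusted p = 0.00337). BIRC3 (cIAP2) fell from 14.8 and 13.9 FPKM to 11.2 and 11.7 FPKM (−0.30, SE 0.059, adjusted p = 0.00408). BIRC2 (cIAP1), its neighbour on chromosome 11, fell from 43.8 and 42.6 FPKM to 35.5 and 37.4 FPKM (−0.24, SE 0.054, adjusted p = 0.00715). So TRAF2 and both ligases it docks fell, though the call of BIRC2 was lost without KO replicate 1 (−0.20, adjusted p = 0.0969) and with the median of its region subtracted (−0.13, adjusted p = 0.0832). RIPK1, the kinase of the same receptor complex, overlapped at 8.21 and 7.74 FPKM in WT and 8.13 and 8.84 FPKM in KO-labelled libraries (0.079, 95% interval −0.068 to 0.23, adjusted p = 0.332). RIPK2, the kinase downstream of NOD receptors, fell from 8.52 and 9.30 FPKM to 6.98 and 7.03 FPKM (−0.31, SE 0.062, adjusted p = 0.00435).

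MYD88, the adaptor of interleukin-1 and most Toll-like receptors, was the 1 adaptor that rose, from 13.9 and 13.0 FPKM to 15.2 and 15.5 FPKM (0.18, SE 0.058, adjusted p = 0.0321). That call was lost without WT replicate 2 (0.14, adjusted p = 0.0810), without KO replicate 1 (0.20, adjusted p = 0.131) and without KO replicate 2 (0.16, adjusted p = 0.204), with a replicate block (0.18, adjusted p = 0.0688) and with no filter (0.18, adjusted p = 0.0891). TRAF6, the ligase downstream of MYD88, overlapped at 2.37 and 2.05 FPKM in WT and 2.15 and 2.25 FPKM in KO-labelled libraries (−0.0026, 95% interval −0.17 to 0.16, adjusted p = 0.979). TRAF3, which restrains the noncanonical route by promoting the loss of NIK, overlapped too, at 6.08 and 5.38 FPKM and 5.50 and 5.46 FPKM (−0.051, 95% interval −0.21 to 0.10, adjusted p = 0.552). It passed as a fall with the median of its region subtracted (−0.21, adjusted p = 0.0380).

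Of the kinases, 1 of 5 was called, where 49.9% of all tested genes were. IKBKE, an IKK-related kinase of antiviral signalling, fell from 6.69 and 6.80 FPKM to 5.20 and 4.99 FPKM without overlap (−0.34, SE 0.058, adjusted p = 0.00175). The catalytic subunits of the IkB kinase complex are IKBKB and CHUK. IKBKB (IKK beta) measured 11.4 and 11.5 FPKM in WT and 12.3 and 12.0 FPKM in KO-labelled libraries (0.078, 95% interval −0.047 to 0.20, adjusted p = 0.262). CHUK (IKK alpha) measured 9.51 and 8.46 FPKM and 7.94 and 8.08 FPKM, lower without overlap and not past the threshold (−0.15, 95% interval −0.30 to 0.0069, adjusted p = 0.101). CHUK passed as lower in 3 alternatives, such as voom on the computed fragments (−0.17, limma adjusted p = 0.0321). Its change was −0.22 without WT replicate 2 and −0.071 without WT replicate 1. IKBKG (NEMO), the regulatory subunit, was at 11.6 and 11.5 FPKM and 12.0 and 11.8 FPKM (0.037, 95% interval −0.087 to 0.16, adjusted p = 0.590), and a near-identical pseudogene could share its reads. It passed as higher with the median of its region subtracted (0.19, adjusted p = 0.0250). MAP3K14 (NIK), which starts the noncanonical route, was at 10.8 and 11.2 FPKM and 11.8 and 11.4 FPKM (0.074, 95% interval −0.056 to 0.20, adjusted p = 0.303). In IKBKB, IKBKG and MAP3K14 the KO-labelled libraries were the higher ones, by margins that did not pass.

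Among the REL family subunits RELA was the most abundant in FPKM in every library, NFKB2 the second and REL the least. RELA (p65), the main activating subunit of the canonical route, went from 51.7 and 55.1 FPKM to 50.4 and 47.2 FPKM, lower without overlap and not past the threshold (−0.13, 95% interval −0.26 to 0.0083, adjusted p = 0.105). Leaving out WT replicate 1 made it pass (−0.17, adjusted p = 0.00980). Both subunits of the noncanonical route fell. NFKB2, the precursor of p52, went from 35.0 and 37.1 FPKM to 30.9 and 30.5 FPKM (−0.23, SE 0.055, adjusted p = 0.00997). RELB, the partner of p52, went from 10.9 and 12.8 FPKM to 9.46 and 8.70 FPKM (−0.34, SE 0.082, adjusted p = 0.0102). The call of NFKB2 was lost without KO replicate 1 (−0.24, adjusted p = 0.0669), without KO replicate 2 (−0.22, adjusted p = 0.0908) and with the median of its region subtracted (−0.15, adjusted p = 0.0549). That of RELB was lost without KO replicate 2 (−0.29, adjusted p = 0.0658) and with no filter (−0.34, adjusted p = 0.0733). REL, the subunit typical of lymphoid cells, was at 1.46 and 1.41 FPKM and 1.56 and 1.60 FPKM (0.083, 95% interval −0.061 to 0.23, adjusted p = 0.299).

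NFKB1, the precursor of p50, was the subunit that rose, from 11.4 and 10.8 FPKM to 14.5 and 14.5 FPKM without overlap (0.36, SE 0.056, adjusted p = 0.00134). It lies on chromosome 4 at 102501266 to 102617302 (as deposited), and the 51 other tested genes of that 20 Mb bin changed by a median of 0.53. NFKB1 thus rose less than its surroundings, and with bin medians subtracted it was called as a fall (−0.18, adjusted p = 0.0369). CXCL3, on the same chromosome, rose by 0.36 in a bin with a median of 0.33. TNIP2, near the tip of chromosome 4, fell in a bin with a median of −0.40. TLR3 lies on chromosome 4 too, and as it missed the filter no bin median was computed for it. What such regions contribute was not tested beyond this subtraction.

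**Figure D3:**
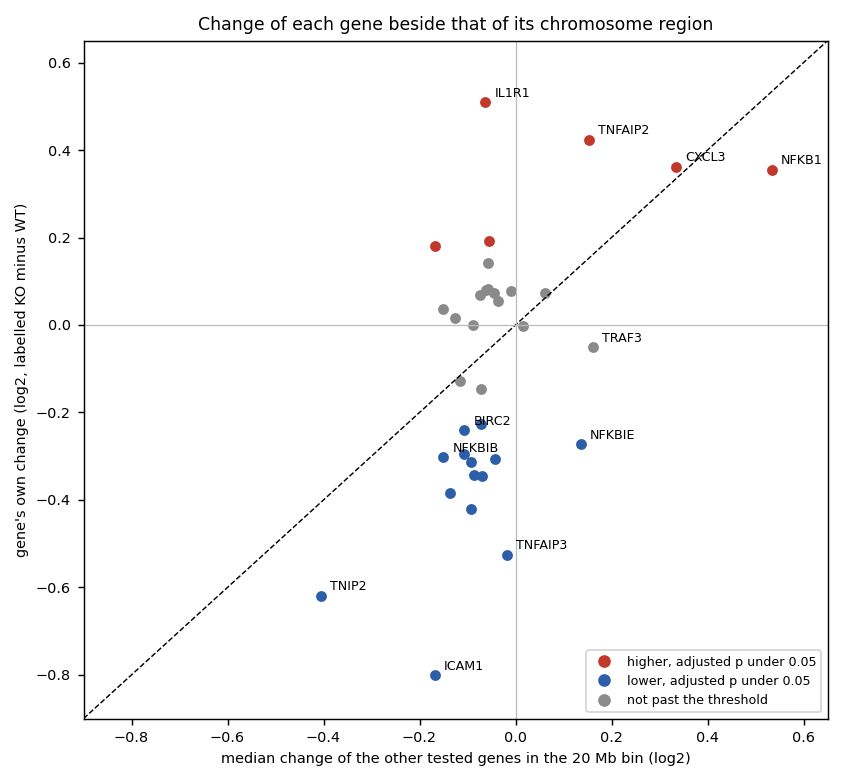
Log2 change of each of the 35 tested genes (vertical axis) against the median log2 change of the other tested genes in its 20 Mb bin (horizontal axis), with a dashed line where both are equal. NFKB1 lies below the line and CXCL3 close to it, both at the right, while ICAM1, TNFAIP3 and IL1R1 lie far from it in bins with medians of −0.17 to −0.018.

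IkB proteins, which bind and hold the dimers, split by member. NFKBIA (IkB alpha), the classic feedback target and the most abundant of the 5, was at 45.4 and 48.6 FPKM in WT and 48.9 and 50.2 FPKM in KO-labelled libraries. Its groups did not overlap, by a small gap, and it did not pass (0.074, 95% interval −0.056 to 0.20, adjusted p = 0.304). NFKBIB (IkB beta) fell from 11.5 and 12.7 FPKM to 10.1 and 9.17 FPKM (−0.30, SE 0.070, adjusted p = 0.00800). On the opposite strand, CCER2 shares 28.5% of its exon bases and SIRT2 8.99%, and whether counting used strand is not known here. NFKBIE (IkB epsilon) fell from 7.85 and 8.91 FPKM to 7.11 and 6.41 FPKM (−0.27, SE 0.076, adjusted p = 0.0183). Both falls were lost without KO replicate 2 (NFKBIB −0.24, adjusted p = 0.0809; NFKBIE −0.21, adjusted p = 0.151) and with no filter (adjusted p = 0.0596 and 0.0972). That of NFKBIB was also lost with bin medians subtracted (−0.15, adjusted p = 0.116), and that of NFKBIE with median-of-ratios scaling (−0.22, adjusted p = 0.0560). The nuclear members modulate the dimers rather than hold them outside the nucleus. NFKBIZ was at 11.8 and 11.8 FPKM in WT and 11.9 and 12.9 FPKM in KO-labelled libraries (0.068, 95% interval −0.069 to 0.20, adjusted p = 0.369). BCL3 overlapped at 8.73 and 10.0 FPKM and 9.87 and 8.87 FPKM (−0.0012, 95% interval −0.19 to 0.18, adjusted p = 0.991).

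Brakes on the signal did not move as 1 group. TNFAIP3 (A20), the ubiquitin-editing enzyme that ends NF-kB signalling, measured 2.73 and 2.93 FPKM in WT and 1.67 and 1.66 FPKM in KO-labelled libraries. It fell to 0.587 times its WT level without overlap (−0.53, SE 0.063, adjusted p = 0.000370), and the antisense gene WAKMAR2 shares 7.16% of its exon bases. TNIP2 (ABIN-2), which binds A20, fell from 33.5 and 35.2 FPKM to 21.4 and 22.6 FPKM (−0.62, SE 0.057, adjusted p = 0.000117). With bin medians subtracted it was still called (−0.21, adjusted p = 0.0186). TNIP1 (ABIN-1), also a partner of A20, rose instead, from 26.0 and 25.6 FPKM to 29.8 and 29.4 FPKM (0.19, SE 0.052, adjusted p = 0.0156). That rise was lost without KO replicate 1 (0.18, adjusted p = 0.140) and also without KO replicate 2 (0.20, adjusted p = 0.108). CYLD, a deubiquitinase that opposes the same signals, was at 4.45 and 4.31 FPKM and 4.54 and 4.64 FPKM (0.056, 95% interval −0.078 to 0.19, adjusted p = 0.450).

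Targets included the largest fall of the 35 genes. ICAM1, the adhesion molecule that leukocyte integrins bind, measured 36.4 and 36.4 FPKM in WT and 20.7 and 20.3 FPKM in KO-labelled libraries. It fell to 0.562 times its WT level (−0.80, SE 0.052, adjusted p = 2.16e-05), and in all 14 alternatives it was called, with changes of −0.83 to −0.63. TNFAIP2, a TNF-induced gene of cell protrusions, went the other way, from 17.0 and 18.4 FPKM to 24.2 and 23.9 FPKM (0.42, SE 0.058, adjusted p = 0.000674). CXCL3, a chemokine for neutrophils, rose from 1.03 and 0.868 FPKM to 1.51 and 1.50 FPKM (0.36, SE 0.070, adjusted p = 0.00342). With a WT mean of 0.949 FPKM, it too was tested only because of the level in the KO-labelled libraries. CXCL3 rested on 71 fragments in WT and 163 in KO-labelled libraries, a depth-scaled ratio of 1.54 (95% exact interval 1.16 to 2.06, counting error only). Its call was lost with bin medians subtracted (0.028, adjusted p = 0.781), and CXCL1 and CXCL2 are close enough in sequence that reads could be shared.

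The other 6 targets lay under the filter. CCL5, a chemokine for T cells, was lower in both KO-labelled libraries, at 0.528 and 0.650 FPKM in WT against 0.205 and 0.207 FPKM. It had 50 fragments in WT and 27 in KO-labelled libraries, a ratio of 0.362 (95% exact interval 0.218 to 0.590), and with no filter its log2 change was −0.40 (limma adjusted p = 0.0212). PTGS2 (COX-2), which makes prostaglandins, was at 0.888 and 0.798 FPKM against 0.777 and 0.740 FPKM, a ratio of 0.883 (95% exact interval 0.750 to 1.04). For the chemokines CCL20 and CXCL10 a difference was not detectable at this depth. CCL20 had 13 and 10 fragments (ratio 0.516 with a 95% exact interval 0.203 to 1.27), and CXCL10 had 12 and 15 (ratio 0.838 with a 95% exact interval 0.366 to 1.96). TNF itself had 1 and 1 fragments in WT and 11 and 4 in KO-labelled libraries, most of them in KO replicate 1. Its ratio was 5.03 (95% exact interval 1.17 to 45.3). CCL2, a chemokine for monocytes, had 0 fragments in both WT libraries, which allows up to 0.0896 and 0.180 FPKM (3 fragments), and 1 and 4 fragments in KO-labelled libraries. With no filter, TNF, CCL2, CCL20, CXCL10 and PTGS2 did not pass (limma adjusted p = 0.172 to 0.665), and the intervals here cover counting error only.

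A further 78 components and targets of the pathway were listed, of which 58 were tested. Of these 14 were higher and 18 lower in KO-labelled libraries, or 55.2% called beside the background of 49.9%, with a median of −0.030. With median-of-ratios scaling the balance turned, to 17 higher and 12 lower. Over all tested genes it turned too, to 3094 higher and 2504 lower from 2527 and 3323. The genes named from this list are the 5 largest rises and 5 largest falls among called genes whose groups did not overlap. Of 16 further targets tested, 8 were higher and 4 lower, with a median of 0.21. That is 50% higher and 25% lower, where 21.6% and 28.4% of all tested genes were. The list was chosen with earlier results of these data known, so its shares are not an independent comparison. IL6, an inflammatory cytokine, rose from 2.98 and 2.73 FPKM to 4.96 and 5.23 FPKM (0.66, SE 0.064, adjusted p = 0.000148). Its bin had a median of 0.19, and with bin medians subtracted the change of IL6 was 0.47. CXCL1, a neutrophil chemokine, rose from 3.90 and 3.16 FPKM to 5.86 and 5.88 FPKM (0.61, SE 0.083, adjusted p = 0.000816), in the same bin as CXCL3. XIAP, an inhibitor of caspases, rose from 4.54 and 4.17 FPKM to 7.90 and 8.24 FPKM (0.76, SE 0.063, adjusted p = 7.07e-05), in a bin with a median of 0.36. CD83, a surface protein of activated immune cells, fell from 3.45 and 3.24 FPKM to 2.34 and 2.35 FPKM (−0.38, SE 0.061, adjusted p = 0.00150). Groups that did not overlap were a condition for naming these 4.

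Counts in this paragraph stand beside 21.6% higher, 28.4% lower and 49.9% called over all tested genes. Of 5 further receptors tested, 1 was higher and 3 lower. LTBR, the lymphotoxin beta receptor that feeds the noncanonical route, fell from 57.7 and 60.8 FPKM to 45.0 and 42.8 FPKM (−0.43, SE 0.056, adjusted p = 0.000573). TLR6, which pairs with TLR2, rose from 0.765 and 0.682 FPKM to 1.48 and 1.42 FPKM (0.51, SE 0.066, adjusted p = 0.000564) in a bin with a median of 0.29, and passed the filter through the KO-labelled libraries. Of 23 further adaptors and kinases, 3 were higher and 6 lower. UBE2N (UBC13), the enzyme that works with TRAF6 to build ubiquitin chains, fell from 23.1 and 25.8 FPKM to 15.4 and 14.9 FPKM (−0.65, SE 0.066, adjusted p = 0.000178). PELI1, a ubiquitin ligase that acts on IRAK1, fell from 1.50 and 1.62 FPKM to 1.01 and 1.02 FPKM (−0.35, SE 0.065, adjusted p = 0.00296). Of 14 further brakes, 2 were higher and 5 lower. ZC3H12A (regnase-1), a nuclease that degrades inflammatory messages such as that of IL6, rose from 3.61 and 3.71 FPKM to 7.13 and 6.22 FPKM (0.72, SE 0.071, adjusted p = 0.000169). Its bin had a median of 0.24, and with bin medians subtracted the change of ZC3H12A was 0.47. TOLLIP, which dampens IRAK1 signalling, fell from 13.2 and 13.2 FPKM to 10.6 and 9.74 FPKM (−0.34, SE 0.061, adjusted p = 0.00226). The same condition applied to these 6.

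**Figure D4:**
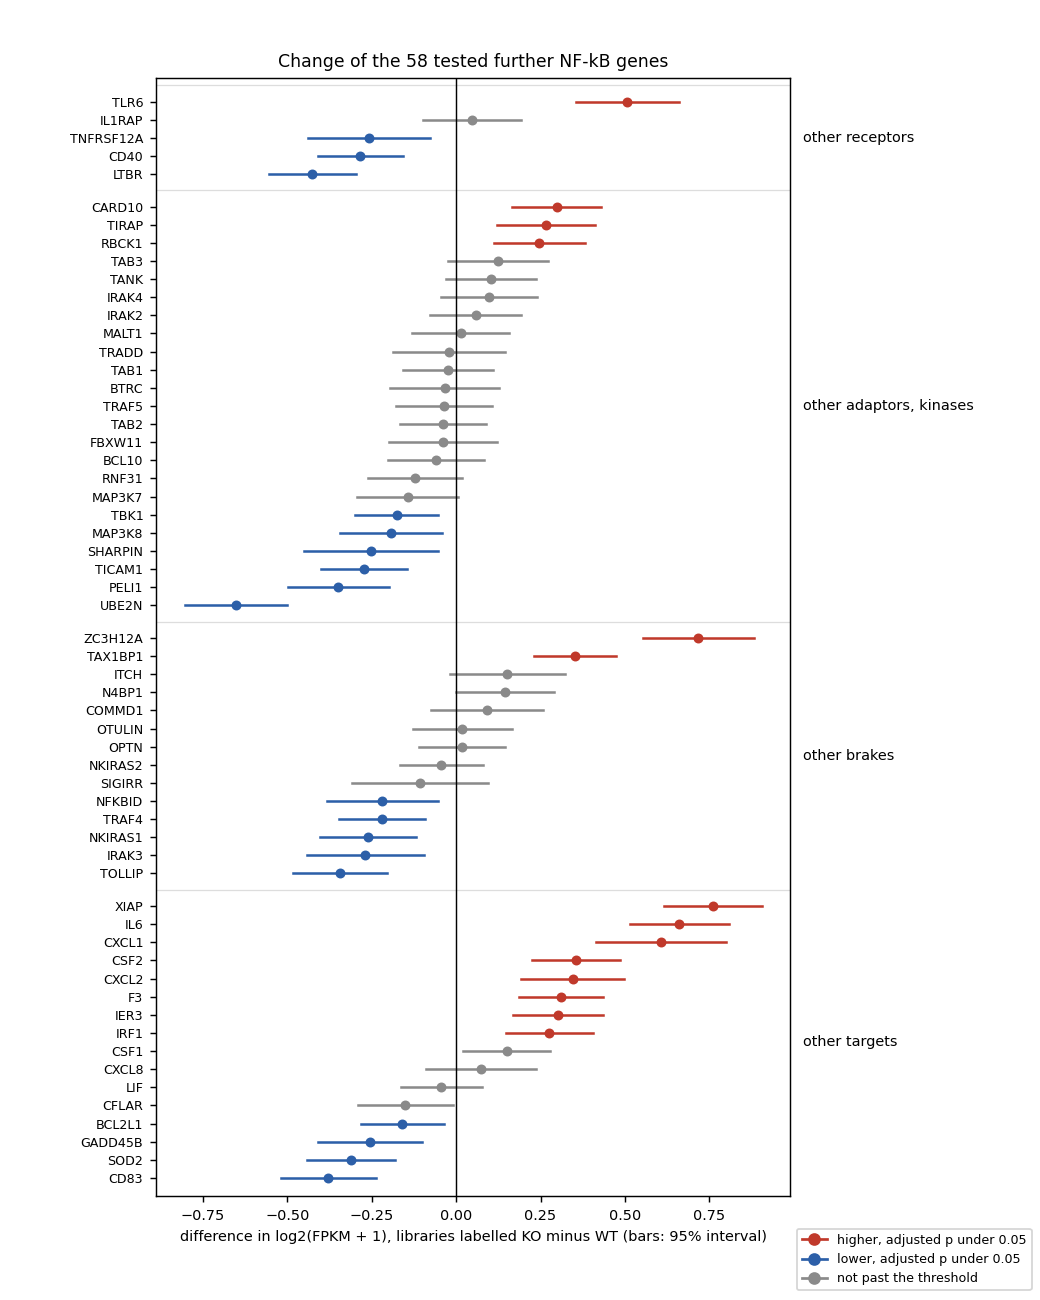
Difference in log2(FPKM + 1), KO-labelled minus WT libraries, for the 58 further pathway genes and targets that were tested, with 95% intervals from limma. UBE2N lies farthest to the left at −0.65 and XIAP farthest to the right at 0.76.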

How the data were processed

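The authors deposited 1 table of FPKM values with exon coordinates and gene lengths, per the file headers. STAR, Subread and DESeq2 are named, without versions, in the submitters' processing notes; build and strand setting are not stated in any source used. Dividing FPKM times length by its smallest value gave whole fragments for 100% of values (tolerance 0.001). Symbols matched by Entrez ID for 37708 of 39259 genes (RefSeq, GRCh38.p14).

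KO and WT were compared with limma (3.58.1, R 4.3.3; trend, robust) on log2(FPKM + 1), keeping genes that averaged 1 FPKM or more, and p-values were adjusted by Benjamini-Hochberg over all 11716. Members and lists were chosen with earlier results of these data known. Named genes were all members, RIOX2, and 10 of the further pathway genes. Those were the 5 largest rises and 5 largest falls past the threshold whose groups did not overlap. On simulated data the fit recovered the changes put in, but called unchanged genes too often where they were short and had few fragments. The acceptance bound of that test was therefore restricted, after this was seen, to genes averaging at least 200 fragments. Under that mean were 1 tested member (CXCL3) and 1 further gene, and the count of calls over all genes may be too high. Alternatives were no filter, 5 FPKM as the filter, 0.1 as the pseudocount, quantile and median-of-ratios scaling, and no trend or robust option. Further ones were voom on the computed fragments, subtraction of 20 Mb bin medians, a replicate block, and leaving out each library. The last, a block with the replicate numbers crossed, was chosen after seeing the data. Counts out of 14 include it, also for RIOX2, which passed as higher under it.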

Additional observations from a re-analysis of the deposited data

How the results depend on the processing

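Leaving out 1 library at a time gave 4 to 8 members higher and 10 to 15 lower, against 6 and 14, and 9 to 18 further genes higher and 8 to 19 lower, against 14 and 18. The library left alone was then taken to be as variable as the pair. The tested set changed as well. With either WT library left out 36 members were tested, not 35, and with either KO library left out 57 further genes, not 58. Over all genes, calls ranged from 30.2% (without KO replicate 2) and 32.4% (without KO replicate 1) to 60.5% (without WT replicate 1), and were 19% with no filter. With bin medians subtracted, 19 further genes were higher and 9 lower, and 50.4% of all calls were higher. With the replicate block, 5 members were higher and 14 lower, and 14 and 15 further genes, with 45.9% of all tested genes called. No label ties a replicate number to a culture or day, and same-numbered libraries deviated with a correlation of −0.225. Crossing the numbers, a choice made after seeing the data, gave 6 and 16 members and 16 and 19 further genes. Calls then made up 56.8% of all tested genes. Of the single-gene values under alternatives, 577 kept direction and side of the threshold, 21 lost the call, 18 gained one and 14 changed direction. NFKB1 changed to −0.18 with bin medians subtracted. The others that changed direction were near 0. BCL3 came to 0.014 with quantile normalization, 0.057 with median-of-ratios scaling, 0.010 with voom, 0.088 with bin medians subtracted, and −0.092 to 0.090 without 1 library. TRAF6 came to 0.016 with quantile normalization, 0.041 with median-of-ratios scaling and −0.074 to 0.069 without 1 library. TRAF3 came to 0.0029 with median-of-ratios scaling and −0.13 to 0.023 without 1 library, and TNFRSF1A to −0.039 to 0.071 without 1 library. Depth limits TNF, CCL2, CCL20 and CXCL10, which had 15 fragments or fewer in either group.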
